A study of Mus musculus with 24 samples.

Results

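A set of 10 genes of the class I antigen presentation pathway was followed in mouse B-cell lymphomas treated with Adriamycin (ADR), which is doxorubicin, a chemotherapy drug that damages DNA, and in the same lymphomas left untreated. They are B2m, H2-K1, H2-D1, Tap1, Tap2, Tapbp, Calr, Psmb8, Psmb9 and Psmb10, chosen by name as 10 of the 18193 genes measured. All probe sets that the array annotation assigns to 1 of these genes alone were read, which gave 29 of 34945 such probe sets. A further 3 probe sets name one of these genes beside other genes and were not used.

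The 24 arrays measured total RNA of 12 primary lymphomas from lymph nodes of Eµ-Myc transgenic mice, in which Myc is driven in cells of the B lineage, with 12 ADR arrays and 12 untreated arrays in matched pairs. The cells of both groups carried Bcl2 on a retroviral vector, had been selected with puromycin, and grew on gamma-irradiated NIH 3T3 mouse fibroblasts as a feeder layer. ADR cells received 0.05 µg/ml of the drug in culture for 5 days, and untreated cells received none. Per the series' design text, cells with Myc and Bcl2 become senescent, meaning that they stop dividing for good, upon DNA damage, and the comparison asks how treated and untreated cells of 1 lymphoma differ.

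Class I molecules show peptides from inside the cell to cytotoxic T cells. The proteasome cuts proteins into peptides, the TAP transporter moves the peptides into the endoplasmic reticulum, and a loading complex places them on a heavy chain bound to beta-2 microglobulin. In lymphoid cells and after interferon, especially interferon gamma, the catalytic subunits Psmb5, Psmb6 and Psmb7 are replaced by Psmb8, Psmb9 and Psmb10, which makes the immunoproteasome. Class I promoters are known to hold binding sites for NF-kB and for interferon regulatory factors, and NLRC5 is a transactivator of these genes.

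Upstream sequences of 6 of the genes are shown because they carry, or for Psmb9 do not carry, the motifs of those regulators that a search could find. The sequences are RefSeq's, on build GRCm38.p6, each 5′ to 3′ on the gene's strand. They cover the 250 bases before the start in each gene's promoter entry. They lie at chr2:122147437-122147686, plus strand for B2m, at chr17:34000348-34000597, minus strand for H2-K1, at chr17:35262844-35263093, plus strand for H2-D1, at chr8:84846932-84847181, minus strand for Calr, at chr17:34197945-34198194, plus strand for Psmb8, and at chr17:34187331-34187580, minus strand for Psmb9. For H2-K1 the printed stretch lies inside the gene's annotated span, which reaches base 34000619. Positions in H2-K1 count from the start in its promoter entry. Capitals mark motif matches.
B2m: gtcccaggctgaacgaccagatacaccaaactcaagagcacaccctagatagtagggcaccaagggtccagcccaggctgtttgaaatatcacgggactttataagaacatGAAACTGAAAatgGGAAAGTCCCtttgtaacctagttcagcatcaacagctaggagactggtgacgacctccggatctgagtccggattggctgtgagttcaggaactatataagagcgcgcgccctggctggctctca
H2-K1: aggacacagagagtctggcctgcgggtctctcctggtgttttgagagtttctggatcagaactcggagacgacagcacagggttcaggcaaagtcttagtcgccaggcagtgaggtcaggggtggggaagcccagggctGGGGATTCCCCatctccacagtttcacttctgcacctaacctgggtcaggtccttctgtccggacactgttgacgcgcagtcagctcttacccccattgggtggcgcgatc
H2-D1: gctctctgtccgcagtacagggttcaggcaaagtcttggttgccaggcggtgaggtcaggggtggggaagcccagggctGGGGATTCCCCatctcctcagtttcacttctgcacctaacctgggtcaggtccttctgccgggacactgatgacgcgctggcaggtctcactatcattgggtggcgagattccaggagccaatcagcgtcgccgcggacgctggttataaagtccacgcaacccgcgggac
Calr: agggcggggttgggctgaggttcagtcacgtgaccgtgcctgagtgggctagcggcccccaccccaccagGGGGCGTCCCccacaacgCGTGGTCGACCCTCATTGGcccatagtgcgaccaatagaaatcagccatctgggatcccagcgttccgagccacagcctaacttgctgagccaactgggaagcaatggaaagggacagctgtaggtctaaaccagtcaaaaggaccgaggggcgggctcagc
Psmb8: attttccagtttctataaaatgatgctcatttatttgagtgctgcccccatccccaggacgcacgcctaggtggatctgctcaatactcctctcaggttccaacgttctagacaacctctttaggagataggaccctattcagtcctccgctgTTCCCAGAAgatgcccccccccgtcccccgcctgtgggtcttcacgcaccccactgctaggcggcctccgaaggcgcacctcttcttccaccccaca
Psmb9: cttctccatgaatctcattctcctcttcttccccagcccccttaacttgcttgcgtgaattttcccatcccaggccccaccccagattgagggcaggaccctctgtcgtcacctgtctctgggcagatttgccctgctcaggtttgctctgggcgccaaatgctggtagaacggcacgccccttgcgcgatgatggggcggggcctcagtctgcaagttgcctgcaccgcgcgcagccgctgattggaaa

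Of the 10 genes, 9 had a promoter entry, and Tap2 had none. Both strands of each 300-base window (250 before the start and 50 after it) were searched for 4 motifs. The NF-kB site consensus matched in 4 of the 9 windows, against 8.46% of all 32851 RefSeq promoter windows. Those matches lay at -126 to -117 from the start in B2m, at -111 to -101 in H2-K1, at -171 to -161 in H2-D1 and at -180 to -171 in Calr, and those of H2-K1 and H2-D1 are each a pair of overlapping matches. H2-K1 and H2-D1 share a run of 47 identical bases around this site. The core of the interferon-stimulated response element (GAAA, any 2 bases, GAAA) matched in B2m at -139 to -130 and in 3.44% of all windows, beside the NF-kB match. A gamma-activated site (TTC, any 3 bases, GAA) matched in Psmb8 at -97 to -89 and in 8.3% of all windows. The endoplasmic reticulum stress element (CCAAT, any 9 bases, CCACG) matched on the minus strand in Calr at -162 to -144 and in 0.119% of all windows. The windows of Psmb9 and Tap1, which are transcribed away from each other, share 275 of 300 bases. A match is a description of letters, not a bound site, and no match says only that these letters are not in this window.

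Expression is given as the deposited log2 values, a change is ADR minus untreated within a lymphoma, and a gene was called higher or lower at an adjusted p under 0.05 in limma's paired fit over all 18193 genes. Where a gene had several single-gene probe sets, the brightest on average stands for it. The titles number the 12 lymphomas without stating the mice, so p-values measure the spread between these lymphomas. Between ADR and untreated arrays, 4 of the 10 genes were higher (all genes: 13.7%) and 2 were lower (all genes: 12.8%), and 4 were not called. The median change of the 10 was 0.16, against -0.01 over all genes. The genes called higher were B2m, H2-D1, Tapbp and Calr, and the genes called lower were the immunoproteasome subunits Psmb8 and Psmb9.

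Other cells and the state of the culture moved with treatment, and their part in the results was not tested beyond the covariate fits given further on. Of 29 fibroblast markers measured, 23 were higher with ADR, and their mean level per array ranged from 4.49 to 8.73 in ADR and from 4.21 to 4.96 in untreated arrays. Of 24 macrophage markers, 18 were higher, with means of 6.53 to 9.36 in ADR and 5.48 to 8.31 in untreated arrays. Of 14 B cell markers, 6 were lower, with means of 6.72 to 9.37 in ADR and 8.02 to 9.31 in untreated arrays. Among these markers, 3 of the fibroblast, 4 of the macrophage and 0 of the B cell list did not exceed 4.47, the highest array median, in either group. In bulk RNA, fewer cells of a type and less RNA per cell cannot be told apart. The array names of treated samples contain "DOX" for 7 lymphomas and "sen" for 5, and this naming was followed as a possible batch. Within the "DOX" lymphomas limma called Tapbp and Calr higher and Psmb8 and Psmb9 lower, beside 3250 of all 18193 genes called. Within the "sen" lymphomas it called 0 of the 10, beside 811 of all genes. There H2-D1, Tapbp and Calr were higher at an unadjusted p under 0.05, beside 4124 of all genes at that threshold in either direction.

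Of the class I chains, B2m and H2-D1 were called higher. B2m, the light chain shared by all class I molecules (probe set 1449289_a_at), had a lowest value of 12.81, a median of 13.16 and a highest value of 13.53 in ADR arrays, against 12.56, 12.90 and 13.17 in untreated arrays. The groups overlapped, and ADR lay above untreated in 10 of 12 lymphomas. B2m averaged 13.16 ± 0.22 in ADR and 12.86 ± 0.21 in untreated arrays (SD, n = 12 each), a 1.23-fold higher level with ADR (log2 change 0.30, SE 0.09, adjusted p = 0.0322). In the "sen" and the "DOX" lymphomas the mean change was 0.32 ± 0.29 (SD, n = 5) and 0.28 ± 0.38 (SD, n = 7). The B2m call was lost when any 1 of lymphomas 1570, 2581, 3594, 3769, 5560 and 7050 was left out, with changes of 0.26 to 0.29.

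H2-D1, a classical class I heavy chain (1425545_x_at), ran from 11.68 over a median of 12.40 to 13.11 in ADR arrays, and from 11.15 over 11.85 to 12.65 in untreated arrays. It was 1.51-fold higher with ADR (log2 change 0.59, SE 0.16, adjusted p = 0.0151), again above untreated in 10 of 12 lymphomas. H2-K1, the other classical heavy chain measured (1425336_x_at), had a lowest value of 11.52, a median of 12.19 and a highest value of 13.02 in ADR arrays, against 11.13, 11.66 and 12.59 in untreated arrays. Its change of 0.46 (SE 0.19) was not called (adjusted p = 0.0953), although 10 of 12 lymphomas lay above untreated. The changes of H2-K1 were spread widely, from -1.002 in lymphoma 2949 to 1.42 in lymphoma 2581.

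The same pair of lymphomas went against the others for all 3 chains. In lymphoma 1467 the change was -0.15 for B2m, -0.66 for H2-K1 and -0.42 for H2-D1. In lymphoma 2949 it was -0.35 for B2m, -1.002 for H2-K1 and -0.60 for H2-D1. These were the only lymphomas with a lower ADR value for any of the 3 chains. Without lymphoma 1467, H2-K1 was called higher (log2 change 0.56, adjusted p = 0.0353), and likewise without lymphoma 2949 (log2 change 0.59, adjusted p = 0.0153). The changes of the 3 chains ran together over the 12 lymphomas, with r = 0.95 and rho = 0.97 for H2-D1 and H2-K1, r = 0.95 and rho = 0.92 for H2-D1 and B2m, and r = 0.92 and rho = 0.89 for H2-K1 and B2m. The permutation p adjusted over the 45 pairs of the 10 genes was 0.00045, 0.00045 and 0.0006 for these pairs in that order. When lymphomas 2949 and 1467, which lie farthest out, were omitted, r stayed between 0.80 and 0.89, and in the 7 "DOX" lymphomas r lay between 0.91 and 0.97. The changes share arrays, and the probes of H2-K1 and H2-D1 can bind each other's transcripts.

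**Figure D1:**
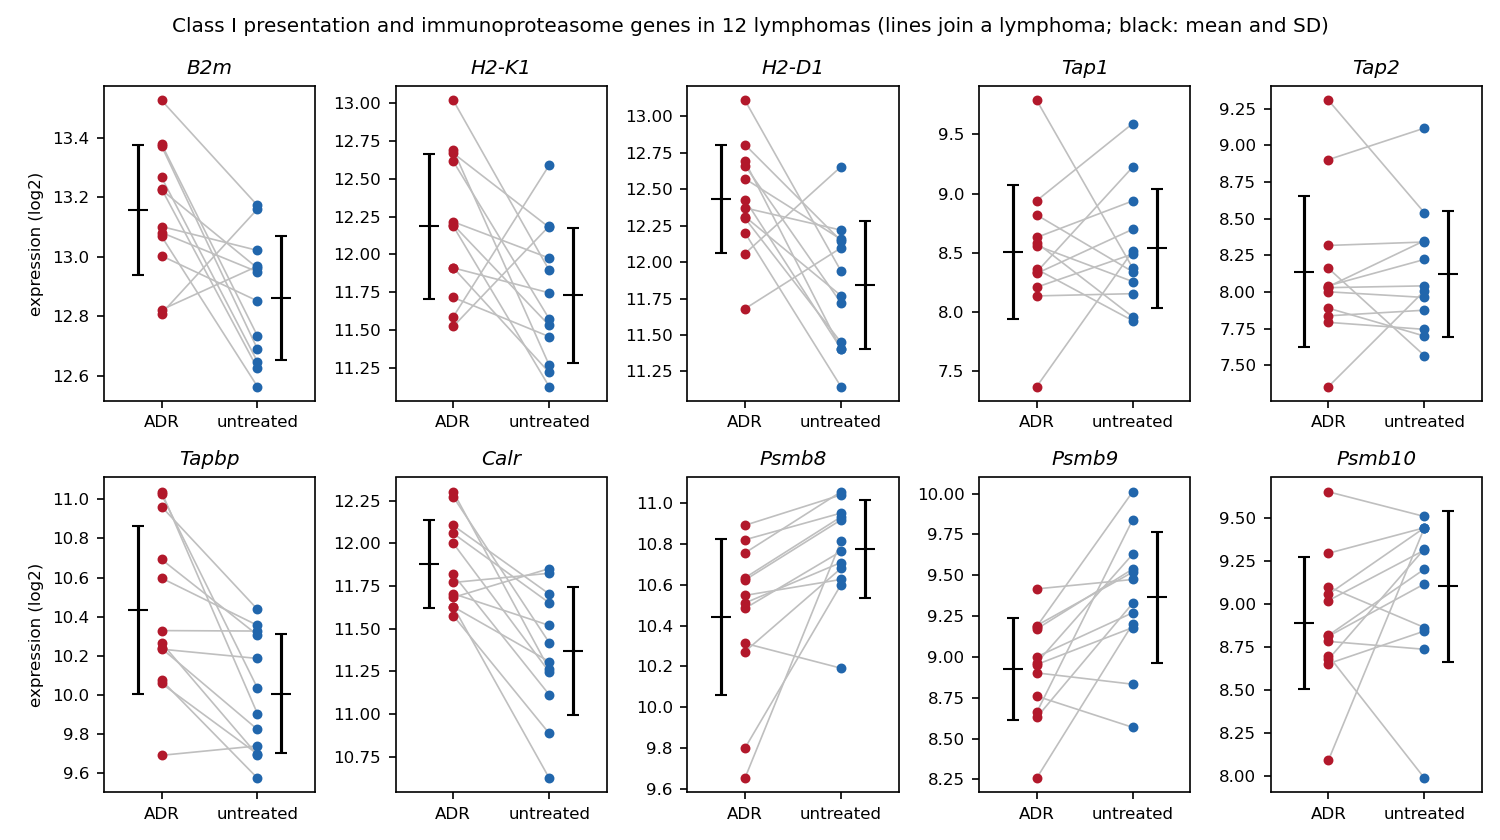
Log2 expression (vertical axes, each panel with its own range) of the 10 genes in ADR arrays (left, red) and untreated arrays (right, blue), with a grey line for each of 12 lymphomas and black bars for the mean and SD. The lines of B2m, H2-D1, Tapbp and Calr mostly slope down toward untreated, those of Psmb8 and Psmb9 mostly slope up, and the groups overlap in every panel.

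In peptide transport and loading, Tapbp and Calr were called higher and the transporter genes were not called. Tap1 (1416016_at), a subunit of the TAP transporter, had a lowest value of 7.37, a median of 8.46 and a highest value of 9.79 in ADR arrays, against 7.92, 8.43 and 9.59 in untreated arrays. Its change was -0.03 (SE 0.19, adjusted p = 0.929), with 5 lymphomas above and 7 below untreated. The changes of Tap1 in single lymphomas were large and opposed, at 1.42 in lymphoma 1570 and 0.63 in lymphoma 2581 but -1.15 in lymphoma 403 and -0.89 in lymphoma 2949. Tap2 (1453913_a_at), the other subunit, ran from 7.36 over 8.03 to 9.31 in ADR arrays and from 7.57 over 8.03 to 9.12 in untreated arrays. Its change was 0.02 (SE 0.10, adjusted p = 0.934), and 7 of 12 lymphomas lay below untreated.

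Tapbp, which encodes tapasin, the bridge between TAP and the heavy chain (1421812_at), had a lowest value of 9.69, a median of 10.30 and a highest value of 11.04 in ADR arrays, against 9.58, 9.97 and 10.44 in untreated arrays. It was 1.34-fold higher with ADR (log2 change 0.43, SE 0.10, adjusted p = 0.00641) and above untreated in 11 of 12 lymphomas. The exception was lymphoma 2949 at -0.05, and lymphomas 1467 and 403 were close to 0 (0.0023 and 0.05). Lymphomas 2581 and 1570 had the largest Tapbp changes, 1.13 and 0.99.

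Calr encodes calreticulin, a chaperone of the endoplasmic reticulum that holds the heavy chain during loading (1417606_a_at). It ran from 11.58 over a median of 11.79 to 12.30 in ADR arrays and from 10.62 over 11.36 to 11.85 in untreated arrays. Calr was 1.43-fold higher with ADR (log2 change 0.51, SE 0.11, adjusted p = 0.0034) and above untreated in 10 of 12 lymphomas. Its exceptions were lymphomas 3802 (-0.17) and 1467 (-0.05), while lymphoma 2949, in which the class I chains were lower with ADR, had a Calr change of 0.75. Over the 12 lymphomas the change of Calr correlated with those of the other 9 genes at r between -0.32 and 0.22, and none of these 9 relations passed an adjusted p of 0.05.

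Of the immunoproteasome subunits, Psmb8 and Psmb9 were called lower and Psmb10 was not called. Psmb8 (1422962_a_at), the inducible counterpart of Psmb5, had a lowest value of 9.65, a median of 10.53 and a highest value of 10.89 in ADR arrays, against 10.19, 10.79 and 11.06 in untreated arrays. It was 1.26-fold lower with ADR (log2 change -0.33, SE 0.10, adjusted p = 0.0198) and below untreated in 11 of 12 lymphomas. Lymphomas 403 and 5560 had the largest falls of Psmb8, -1.16 and -0.80, and the other 10 lymphomas lay between -0.41 and 0.12. Without the lymphoma block the Psmb8 call was lost (adjusted p = 0.077).

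Psmb9 (1450696_at), the inducible counterpart of Psmb6, ran from 8.26 over a median of 8.96 to 9.42 in ADR arrays and from 8.57 over 9.40 to 10.01 in untreated arrays. It was 1.36-fold lower with ADR (log2 change -0.44, SE 0.12, adjusted p = 0.0116) and below untreated in 10 of 12 lymphomas. Its largest falls were in lymphomas 2949 (-1.18), 403 (-0.94) and 5766 (-0.83), and the exceptions were lymphomas 2581 (0.19) and 7050 (0.07). Psmb9 and its neighbour Tap1, whose start lies in the shared window printed for Psmb9, had changes that correlated at r = 0.76 and rho = 0.79 over the 12 lymphomas (permutation p adjusted over 45 pairs 0.0223 for r), with r = 0.74 without lymphomas 1570 and 403. Such a correlation was not particular to this pair. Tap1 reached r = 0.82 with Tapbp, 0.80 with Tap2 and 0.78 with H2-K1, and Psmb9 reached 0.72 with Tapbp. Of the 45 pairs, 16 had an adjusted p under 0.05 for r.

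Psmb10 (1448632_at), the inducible counterpart of Psmb7, had a lowest value of 8.09, a median of 8.82 and a highest value of 9.65 in ADR arrays, against 7.99, 9.26 and 9.51 in untreated arrays. Its change of -0.21 (SE 0.14) was not called (adjusted p = 0.29), with 8 lymphomas below untreated and 4 above. The range of its changes, from -1.35 in lymphoma 403 to 0.71 in lymphoma 2949, was wide. In the "sen" lymphomas Psmb10 changed by -0.46 ± 0.59 (SD, n = 5) and in the "DOX" lymphomas by -0.04 ± 0.38 (SD, n = 7).

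**Figure D2:**
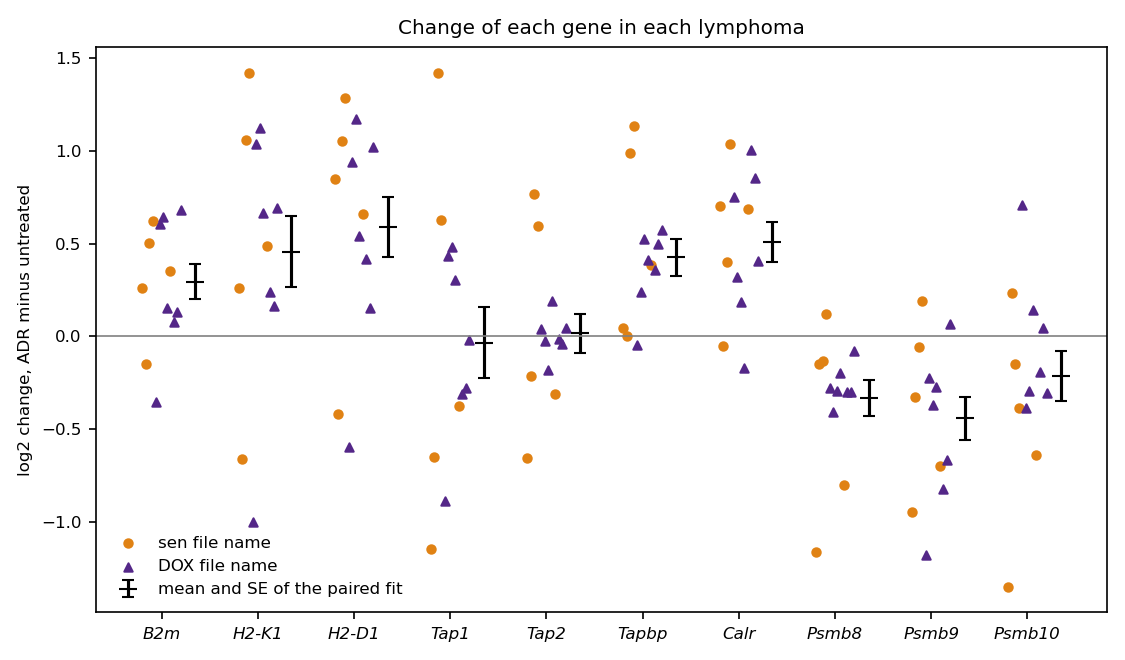
Log2 change, ADR minus untreated (vertical axis), of each of the 10 genes (horizontal axis) in each of 12 lymphomas, with circles for the 5 "sen" and triangles for the 7 "DOX" lymphomas and black bars for the mean and SE of the paired fit. H2-K1 spans -1.002 to 1.42 and Tap1 -1.15 to 1.42, whereas 10 of 12 Psmb8 changes lie between -0.41 and 0.12.

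Whether the inducible subunits changed differently from the constitutive subunits they replace was tested on the 12 paired differences by flipping the signs of the pairs in all ways (exact permutation, two-sided), for which 0.000488 is the smallest possible p. The difference in change, Psmb9 minus Psmb6, was -0.45 (SE 0.14) and below 0 in 10 of 12 lymphomas (exact p = 0.00879, adjusted over the 3 comparisons 0.0264). Psmb6 itself had a change of 0.01 (adjusted p = 0.948). Leaving out any 1 of lymphomas 403, 2949, 3769, 5560, 5766 and 6054 took the Psmb9 difference to an adjusted p of 0.0527. Psmb8 minus Psmb5 was -0.26 (SE 0.11) and below 0 in 9 of 12 lymphomas, which did not pass after adjustment (exact p = 0.0449, adjusted 0.0674). Psmb10 minus Psmb7 was 0.04 (SE 0.14, exact p = 0.754), and Psmb7 was itself lower with ADR (log2 change -0.26, adjusted p = 0.0105). Of the 14 constitutive core subunits of the proteasome, 0 were higher and 6 were lower in limma's fit, and their median change was -0.18. The largest of these falls were those of the alpha-ring subunits Psma4 (-0.32) and Psma1 (-0.30).

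Single probe sets of 1 gene did not all give the same answer. Over the 29 probe sets, 11 were called higher (all single-gene probe sets: 11.3%) and 2 were called lower (12.5%). Of the 22 probe sets above the highest array median of 4.47 in both groups, 10 were higher and 2 lower, and of the 7 near that floor 1 was higher. Calr was higher in 3 of 3 probe sets, with changes of 0.51, 0.51 and 0.51. H2-K1 was higher in 2 of 4 probe sets, at 0.64 (1451931_x_at) and 0.43 (1450534_x_at), and not called in the others, at 0.46 and 0.15. H2-D1 was higher in 4 of 9, of which 3 of 5 lay above the floor, with changes of 0.59, 0.64 and 0.80. Its only probe set above the floor without the suffix that marks possible cross-hybridisation, 1426324_at, changed by 0.37 (adjusted p = 0.159).

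For B2m the second probe set (1452428_a_at) changed by 0.27 (adjusted p = 0.0671). The weaker Tapbp probe set (1450378_at) changed by 0.07 (SE 0.15, adjusted p = 0.789), and the mean of both Tapbp probe sets by 0.25, which was not called (adjusted p = 0.101). The weaker Psmb8 probe set (1444619_x_at) changed by -0.22 (adjusted p = 0.192). Of the 13 probe sets of H2-K1 and H2-D1, 11 carry the suffix _x_at, which marks probes that may bind other transcripts. Class I heavy chain genes are close copies of each other, so the H2-K1 and H2-D1 values may include other heavy chains. Of 32 further class I genes listed, 12 had no single-gene probe set, among them H2-L, H2-Q4, H2-Q7 and H2-T23.

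**Figure D3:**
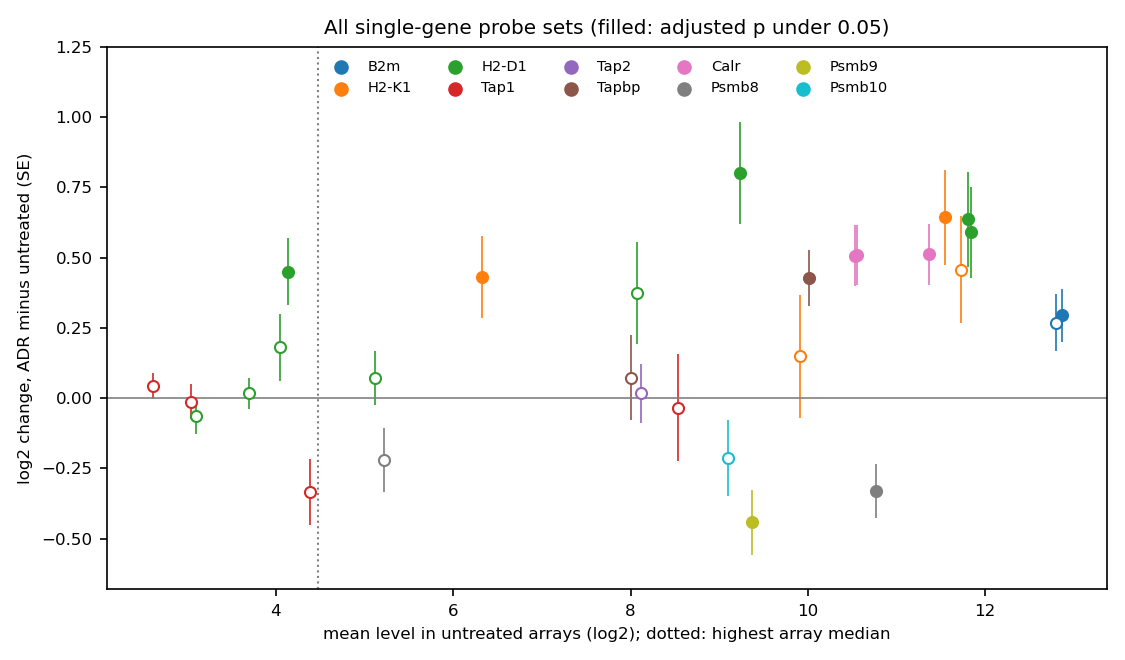
Log2 change, ADR minus untreated, with SE (vertical axis) against the mean level in untreated arrays (horizontal axis, log2) for the 29 probe sets, coloured by gene. Filled points passed an adjusted p of 0.05 over all single-gene probe sets, and the dotted line is the highest array median, 4.47, left of which 1 of 7 points is filled.

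Other genes of the pathway were read from a list of 32, of which 20 were measured. Of these, 3 were higher (all genes: 13.7%), 3 were lower (all genes: 12.8%) and 14 were not called, with a median change of -0.05. Both counts are near the shares of all genes. The same shares stand beside the counts of the other lists. The genes higher with ADR were Ctss, the protease cathepsin S (12.81 ± 0.45 in ADR and 12.03 ± 0.40 in untreated arrays, log2 change 0.79, adjusted p = 0.00233), Pdia3, a disulphide isomerase of the loading complex (0.29, adjusted p = 0.0386), and Tapbpl, a tapasin-related peptide editor (0.29, adjusted p = 0.0464). Those lower were Rfxap (-0.50, adjusted p = 0.00139) and Rfxank (-0.39), subunits of the RFX complex that binds MHC promoters, and Psme3 (-0.42), a proteasome activator. Ctss is also expressed by macrophages, whose marker mean lay above untreated in 12 of 12 lymphomas. The relation of Ctss to those markers was not tested. Nlrc5, the class I transactivator, averaged 7.77 ± 0.51 in ADR and 7.26 ± 0.75 in untreated arrays, with a change of 0.50 that was not called (adjusted p = 0.075, above untreated in 10 of 12 lymphomas).

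Beside Calr, a list of 22 chaperones and unfolded protein response genes had 5 higher and 1 lower, with a median change of 0.15. Dnajb9, a co-chaperone of the endoplasmic reticulum, was higher in 12 of 12 lymphomas (log2 change 0.80, adjusted p = 3.38e-05). Ddit3 (0.96) and Xbp1 (0.57), transcription factors of that response, were higher as well, whereas Calr3, a calreticulin paralogue, was lower (-0.61, adjusted p = 0.0156). NF-kB subunits and inhibitors, 9 measured, had 3 higher and 0 lower, and their median change was 0.26. Rela, the p65 subunit of NF-kB, was higher in 12 of 12 lymphomas (8.998 ± 0.23 in ADR and 8.42 ± 0.22 in untreated arrays, log2 change 0.58, adjusted p = 6.31e-05), and Relb (0.54) and the inhibitor Nfkbie (0.58) were also higher.

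Interferon genes were followed next, since interferon induces all of the presentation genes but Calr. Of 37 interferon-stimulated genes measured, 23 were higher and 1 was lower, and the median change was 0.61. The largest rises were those of Rtp4, a chaperone of receptor transport (2.08), the antiviral RNA-binding protein Ifit1 (2.05) and Oasl2, an oligoadenylate synthetase-like protein (2.04), and Daxx was lower (-0.20). The mean change of the list ran from -0.53 in lymphoma 403 and -0.10 in lymphoma 2949 to 1.77 in lymphoma 3769, and was above 0 in the other 10 lymphomas. Of 17 genes induced mainly by interferon gamma, 7 were higher and 0 lower, led by Cd274, the ligand PD-L1 (1.32), and the GTPases Gbp2 (0.94) and Gbp6 (0.67). Of 24 interferon receptor and signalling genes, 6 were higher, among them Ifngr2 (0.79), Socs3 (0.75) and Stat2 (0.66), and 1 was lower, the phosphatase Ptpn2 (-0.37).

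Ifng itself lay near the floor, at 3.02 ± 0.16 in ADR and 3.09 ± 0.14 in untreated arrays. Irf1, a transcription factor that interferon gamma induces, had a change of 0.20 that was not called (adjusted p = 0.198). Among the 9 presentation genes known to be induced by interferon, B2m, H2-D1 and Tapbp were called higher and Psmb8 and Psmb9 lower, beside 23 of 37 higher and 1 lower in the interferon-stimulated list.

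The relation over lymphomas was tested by regressing each gene's 12 paired changes on the mean change of the interferon-stimulated genes in limma, over the 18156 genes outside that list. After adjustment 0 of the 10 genes had a slope (all genes: 0.00551%, which is 1 gene, Phf11d, named after its value was seen). At an unadjusted p under 0.05, 5 of the 10 had a positive slope (all genes: 3.99%), namely B2m, H2-K1, Tap1, Psmb8 and Psmb9, and 0 had a negative one. Leaving out 1 lymphoma moved this count of 5 to between 2 (without lymphoma 2949, Tap1 and Psmb8) and 6 (without lymphoma 1467), and it was 3 without any 1 of lymphomas 1570, 2581 and 7050. The share of all genes then lay between 3.60% (without lymphoma 7050) and 5.95% (without lymphoma 403). Without lymphoma 403, 1 of the 10 had a negative slope at that threshold. The 5 genes are not all separate observations, as r between changes was 0.92 for H2-K1 and B2m and 0.78 for Tap1 and H2-K1. The slopes of 9 of the 10 genes were positive, against 50.3% of all genes, and only that of Calr was negative (-0.19, SE 0.19). Tap1 had the largest slope, 0.87 (SE 0.24), followed by H2-K1 (0.69, SE 0.28) and Psmb9 (0.47, SE 0.16).

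As correlations over the 12 lymphomas, with p-values adjusted over the 40 relations computed between the 10 genes and 4 lists, Tap1 had r = 0.73 (permutation p = 0.00689, adjusted 0.118) and rho = 0.83 (adjusted 0.0209). H2-K1 had r = 0.58 (adjusted 0.163) and rho = 0.79 (adjusted 0.0346). Psmb9 had r = 0.67 (adjusted 0.129), B2m 0.58 (adjusted 0.163) and Psmb10 0.12 (adjusted 0.802). Lymphomas 403 and 2949, where the mean interferon-stimulated change was below 0, also held the lowest Tap1 and Psmb9 changes. Without both, r was 0.47 for Tap1, 0.31 for Psmb9 and 0.16 for Psmb8, against 0.73, 0.67 and 0.58 with them. With 1 of them left out, Tap1 kept a slope at an unadjusted p under 0.05 either way. Psmb9 kept it only without lymphoma 403, and Psmb8 only without lymphoma 2949. For H2-K1 r was 0.48 without both, against 0.58. For B2m r was 0.58 with and without them, and for H2-D1 it was 0.57 without them, against 0.46 over all 12. In these 10 lymphomas limma gave 0 of the 10 genes a slope at an unadjusted p under 0.05.

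In the 7 "DOX" lymphomas alone, H2-D1 had r = 0.91 (exact permutation p = 0.00437) and was the only one of the 10 genes with a slope after adjustment, where limma called 356 genes. There H2-K1 had r = 0.85 (exact permutation p = 0.0157), B2m 0.84 (exact permutation p = 0.0169), Tap1 0.78 (exact permutation p = 0.0397) and Psmb10 -0.85 (exact permutation p = 0.0175). Tapbp had 0.64, Psmb9 0.61, Psmb8 -0.01, Calr -0.36 and Tap2 -0.57, each with an exact permutation p of 0.133 or more. These p-values are not adjusted. In this set limma gave 3663 of the 18156 genes a slope at an unadjusted p under 0.05, and 9.77% of all genes a positive one. No correlation was computed over the 5 "sen" lymphomas, which are too few. The interferon-stimulated and the macrophage marker changes themselves correlated at r = 0.75 over the 12 lymphomas, and with the macrophage marker mean as a further covariate Tap1 alone kept a positive slope at an unadjusted p under 0.05. Against the macrophage marker change itself, 0 of the 10 genes had an adjusted p under 0.05 over the 12 lymphomas. There r was 0.70 for Psmb9 (adjusted 0.118), 0.61 for H2-K1 (adjusted 0.163), 0.55 for B2m (adjusted 0.163), 0.52 for H2-D1 (adjusted 0.194) and 0.51 for Tap1 (adjusted 0.194). Without lymphomas 2581 and 2949, the farthest out on that measure, r was 0.42 for Psmb9, 0.25 for H2-K1 and 0.13 for H2-D1. In the "DOX" lymphomas it was 0.90 for H2-D1 (exact permutation p = 0.00317), 0.87 for H2-K1 (exact permutation p = 0.00655), 0.84 for Tap1 (exact permutation p = 0.0163) and -0.81 for Psmb10 (exact permutation p = 0.021), with none of these p-values adjusted.

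**Figure D4:**
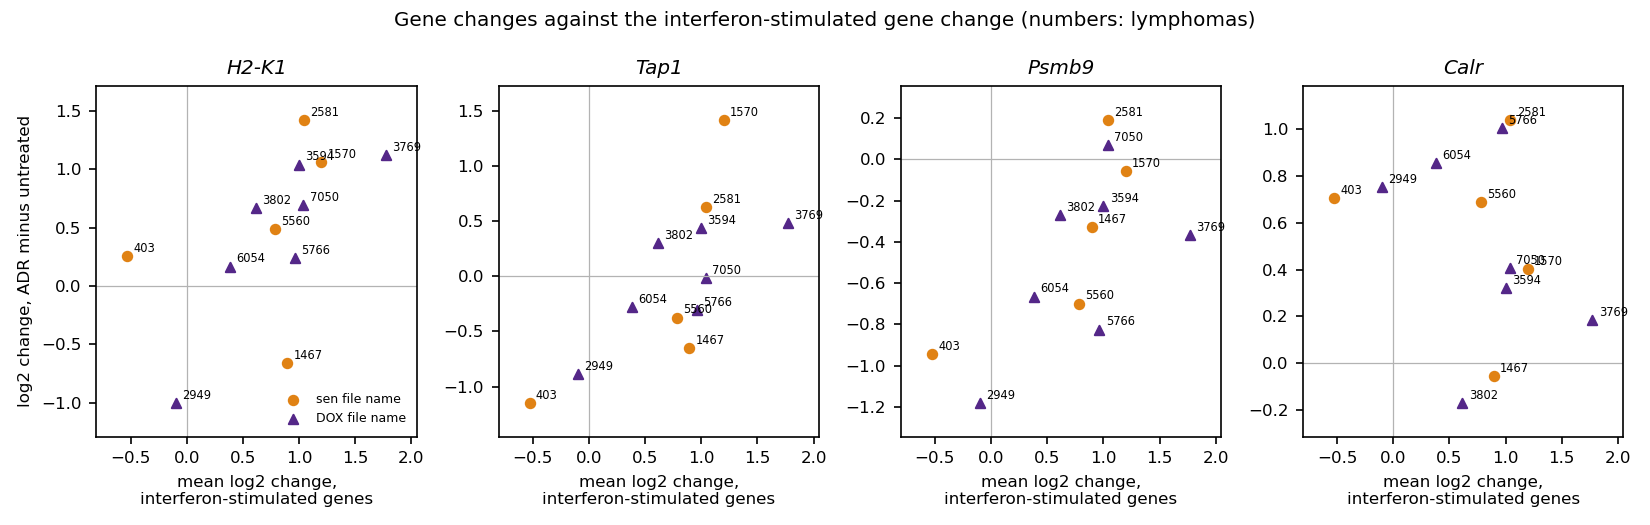
Log2 change, ADR minus untreated, of H2-K1, Tap1, Psmb9 and Calr (vertical axes) against the mean log2 change of the interferon-stimulated genes (horizontal axes) in 12 lymphomas, with circles for "sen" and triangles for "DOX" lymphomas and lymphoma numbers beside the points. Tap1 has the highest r of the 10 genes, 0.73, with lymphomas 403 and 2949 at the lower left, and Calr shows a weak negative r of -0.29.

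The same relation was examined before treatment. Over the 12 untreated arrays, the level of 0 of the 10 genes had a slope on the level of the interferon-stimulated genes after adjustment in limma (all genes: 0.00551%, 1 gene, Irf9, named after its value was seen). At an unadjusted p under 0.05 the count was also 0 (all genes: 4.76%), and 4 of the 10 slopes were positive. The untreated slope of Tap1 was 0.05 (SE 0.29) and that of H2-K1 was 0.00 (-0.0018, SE 0.26). With the interferon gamma-induced list in place of the broader one, all 10 untreated slopes were positive, and those of Tap2 and Tapbp had an unadjusted p under 0.05, with 0 genes called after adjustment among 1043 at an unadjusted p under 0.05.

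Fibroblast markers moved with Psmb10. The mean change of the fibroblast markers ran from -0.04 in lymphoma 1467 to 3.95 in lymphoma 5560 and 4.12 in lymphoma 403. The change of Psmb10 correlated with it at r = -0.88 and rho = -0.92 (permutation p = 5e-05, adjusted over the 40 relations 0.002), the only one of the 40 with an adjusted p under 0.05 for r. Without lymphomas 403 and 1467 r was -0.84, and in the 7 "DOX" lymphomas it was -0.92 (exact permutation p = 0.00139). The 4 lymphomas with a positive Psmb10 change, 2949, 1467, 3802 and 6054, had fibroblast marker changes of 1.24 or less. For Psmb8 the relation was r = -0.68 (adjusted 0.118), and for H2-D1 it was 0.58 (adjusted 0.163). The change of Psmb8 also followed that of the B cell markers, at rho = 0.84 (adjusted 0.0206) and r = 0.66 (adjusted 0.142). There r was 0.57 without lymphomas 5560 and 1570 and 0.56 in the "DOX" lymphomas (exact permutation p = 0.179). For Psmb10 and the B cell markers r was 0.41 (adjusted 0.264). The fibroblast and B cell marker changes themselves correlated at r = -0.73, so relations to these lists are not separate observations. Whether Psmb8 or Psmb10 followed either list apart from the other was not tested.

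With the fibroblast marker mean of each array as a covariate, 0 of the 10 genes were called in limma's fit. At an unadjusted p under 0.05 there were 2, Tapbp and Psmb10, beside 3664 of all 18193 genes. The change was then 0.06 for B2m, 0.09 for H2-D1, 0.41 for Tapbp, 0.29 for Calr, -0.36 for Psmb9 and -0.0004 for Psmb8. That of Psmb10 turned to 0.42 (adjusted p = 0.0769), against -0.21 without the covariate. With that covariate limma called 1141 genes in all, against 4829 without it. Adding the macrophage marker mean to it left 0 calls over all genes in limma, with 2121 at an unadjusted p under 0.05. The changes of B2m, H2-D1 and H2-K1 turned to -0.28 (SE 0.21), -0.48 (SE 0.33) and -0.81 (SE 0.40), none of them called. Without covariates their SEs were 0.09, 0.16 and 0.19. Psmb9 at -0.97 (SE 0.24) and Psmb8 at -0.41 (SE 0.16) kept their direction, against -0.44 and -0.33 without covariates. They alone of the 10 had an unadjusted p under 0.05 with both covariates, and neither was called. The macrophage marker mean rose with ADR in 12 of 12 lymphomas and the fibroblast mean in 11, so these fits separate treatment from the markers poorly. With the B cell marker mean as the covariate, added once the data had been seen, Tapbp alone of the 10 was called. Without lymphomas 403 and 5560, which had the largest fibroblast marker changes, Tapbp, Calr and Psmb8 were called, among 2068 genes higher and 1826 lower. What part fibroblasts or their RNA have in these changes was not tested further.

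**Figure D5:**
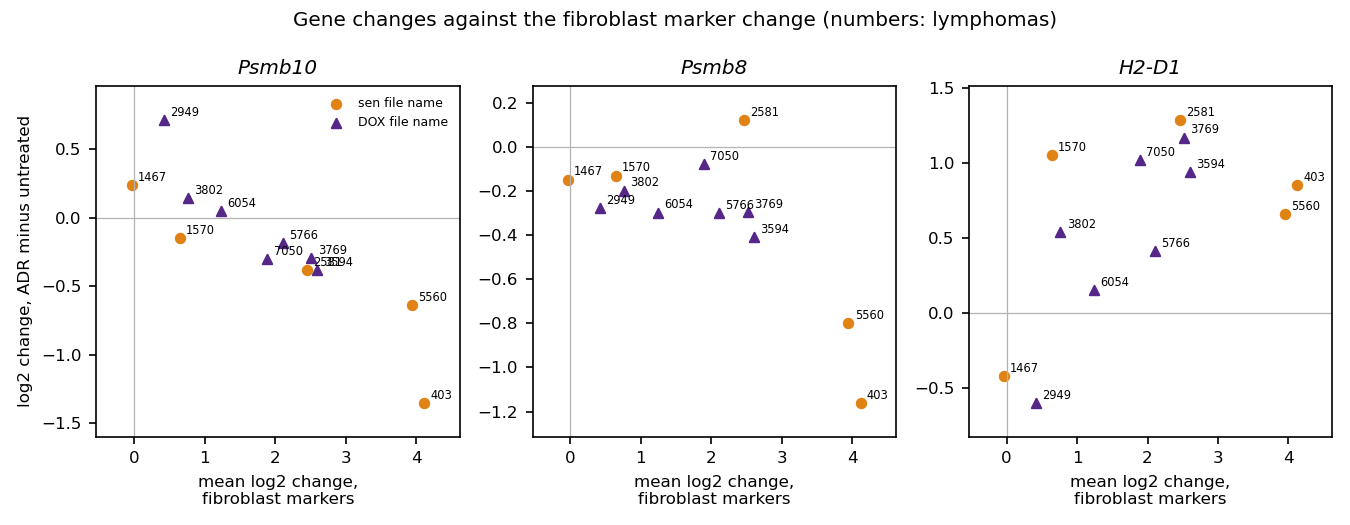
Log2 change, ADR minus untreated, of Psmb10, Psmb8 and H2-D1 (vertical axes) against the mean log2 change of the fibroblast markers (horizontal axes) in 12 lymphomas, with circles for "sen" and triangles for "DOX" lymphomas and lymphoma numbers beside the points. Psmb10 decreases along the axis with r = -0.88, Psmb8 lies between -0.41 and 0.12 in 10 lymphomas and is lowest in 403 and 5560, and H2-D1 is below 0 in 1467 and 2949 alone.

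The genes whose paired change was most like the mean change of the 9 genes other than Calr were found among 11348 genes outside the 10 with a mean above the highest array median. They were Scand1 (r = 0.92 over 12 lymphomas), Samsn1 (0.90), the RNA helicase family member Dhx58 (0.90), Vps39 (0.90) and Tmem81 (0.90). Of these, Tmem81 was lower with ADR (log2 change -0.31, adjusted p = 0.0268), and the other 4 were not called. As the highest of many correlations they are a description only.

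Markers of other cell types were read to describe the cultures. Of 8 dendritic cell markers measured, 0 were higher and 2 were lower, the chemokine receptor Ccr7 (-0.93) and the receptor tyrosine kinase Flt3 (-0.57). Of the 8, 4 lay at or below 4.47 in both groups. Which cells the Ccr7 and Flt3 RNA came from was not tested. Of 15 T and NK cell markers, 1 was higher, the protease Gzma, and 1 was lower, Klrd1, and 7 lay at or below 4.47 in both groups. The largest rises of the fibroblast list were those of Cald1 (4.09), Fn1 (3.47) and Lox (3.40), those of the macrophage list Clec4n (2.44), Adgre1 (2.19) and Clec4e (2.08), and the largest falls of the B cell list Vpreb3 (-2.17), Fcrla (-1.47) and Cd22 (-1.33).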

How the data were processed

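Per the submitters' processing notes, the arrays were processed with RMA and Partek. Their versions are not given in the sources used here. Values in the deposited table are log2, 1 per probe set and array, for 45101 probe sets, with array medians between 4.38 and 4.47, and the log2 scale was read from the values. RMA compresses weak values toward a floor, so a change of a weak probe set is understated. Precision is limited by the number of lymphomas. Gene names came from the platform annotation, in which 34945 probe sets had 1 gene symbol and 932 had several, which were not used.

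Groups and lymphoma numbers came from the sample titles. Deviations from the group means correlated within pairs at 0.257 to 0.589, above 0.1 in 12 of 12. In 10 of 12 pairs the ADR array correlated best with the untreated array of its own lymphoma. The design text states matched pairs. Arrays correlated at 0.908 to 0.992 and 0 were identical. The paired fit and the regressions on list means used limma 3.58.1 in R 4.3.3 (lmFit, eBayes, lymphoma as a block), with Benjamini-Hochberg adjustment over all genes and a threshold of 0.05. Scripts were tested on simulated data. Correlations used 100000 permutations (all orderings in the 7 "DOX" lymphomas) and sign-flip tests all 4096 patterns, two-sided, run with numpy 2.4.6, pandas 2.3.3, scipy 1.17.1 and matplotlib 3.10.9 under Python 3.11.15. Alternatives covered the pairing, normalization, probe set choice, a filter, the variance model, marker covariates, naming sets and lymphomas left out.

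The 10 genes, the 13 lists, these 10 among them (270 entries, 243 measured) and the tests were chosen with earlier results of these data known. Genes named are the 10, all their probe sets, Psmb5, Psmb6, Psmb7, Nlrc5, Irf1 and Ifng, in each list the 3 largest changes among the genes called in the more common direction and the largest call opposite to it, and the 5 genes most like the 10. Other genes were named after their values were seen.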

Additional observations from a re-analysis of the deposited data

How the results depend on the processing

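Of 250 changes of the 10 genes under other settings, 195 kept direction and side of the threshold, 38 lost the call, 2 gained it and 15 turned sign, none of them called under that setting. With fibroblast and macrophage marker means as covariates these were B2m (-0.28, adjusted p = 0.659), H2-D1 (-0.48, adjusted p = 0.625), H2-K1 (-0.81), Tap2 (-0.0093) and Psmb10 (0.42). With the fibroblast mean alone they were Psmb10 (0.42) and Tap1 (0.14). Tap1 also turned with the B cell mean (0.28), without 403 and 5560 (0.11) and without 403, 1467 or 2949 (range over lymphomas left out -0.166 to 0.0676). Tap2 turned with centring (-0.0027) and without 1570 or 2581 (range -0.0512 to 0.0779). Psmb10 minus Psmb7 turned to -0.0825 in the "sen" set and ran from -0.0054 to 0.14 leaving out 1 lymphoma. The cause was not tested. Centring, quantile normalization, the filter and the trended variance left the calls of the 10 genes as they were. With the replicate block left out (no pairing by lymphoma), 1630 genes were higher, against 2500, and 1 of the 10 genes and 1 of their probe sets were lower. With the fibroblast covariate, 481 genes were higher and 660 lower, against 2500 and 2329, and 0 of the 10 either way. Fibroblast and macrophage covariates left 0 higher and 0 lower by limma, of all genes and of the 10, with 2121 genes and 2 of the 10 at an unadjusted p under 0.05. With the B cell covariate, 977 genes were higher and 1048 lower, and 1 and 0 of the 10. The 5 "sen" lymphomas gave 338 higher and 473 lower, and 0 of the 10 either way (3 at an unadjusted p under 0.05, beside 4124 of all genes). The 7 "DOX" lymphomas gave 1649 higher, and 2 of the 10. Without lymphomas 403 and 5560, 2068 genes were higher and 1826 lower, and 2 and 1 of the 10. With the probe set of largest variance, 2219 were higher and 2195 lower, and 1 and 1 of the 10. Fewer samples or other probe sets are part of the construction of these settings.

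Leaving out each lymphoma gave 2038 to 2624 genes higher and 1928 to 2541 lower, 3 to 5 of the 10 higher and 2 lower. B2m lost its call without any 1 of 1570, 2581, 3594, 3769, 5560 and 7050, at changes of 0.26 to 0.29. Genes following the interferon-stimulated change numbered 1, and 0 with the interferon gamma list, the macrophage covariate or the 2 farthest lymphomas left out (1321, 775 and 1014 at an unadjusted p under 0.05 by limma), 356 in the "DOX" set with 1 of the 10, and 0 to 10 leaving out 1 lymphoma (10 without 1570, 4 without 403, 0 without 2949 or 3769). Genes following the untreated interferon level numbered 1, and 0 with the interferon gamma list, the fibroblast covariate, the "DOX" set or the 2 farthest left out (1043, 1093, 415 and 278 unadjusted), 2 with the macrophage covariate, and 0 to 3 leaving out 1 lymphoma. The Psmb8 minus Psmb5 difference passed at -0.21 with the mean of all probe sets and at -0.33 in the "DOX" set. It did not pass with the probe set of largest variance or in the "sen" set. Over these 4 alternatives it was -0.15 at its weakest, and the adjusted p of the sign-flip test reached 0.75. Leaving out 1 lymphoma, the Psmb8 minus Psmb5 difference ran from -0.33 to -0.21, passing without 1570 or 2581. The Psmb9 minus Psmb6 difference was -0.29 in the "sen" set, which cannot reach a p of 0.05, and ran from -0.52 to -0.38 leaving out 1 lymphoma.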
